A study of Bombus terrestris with 8 samples.

Results

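Bte-mir-6001, bte-mir-6037 and bte-mir-6039 are the members of the table of sequenced Bombus terrestris microRNAs (miRNAs) whose names fall in the 60xx range, numbers first given to bee miRNAs. They were picked by name, and they make up 3 of the 65 table entries. Small RNA was sequenced from whole bodies of worker-destined, diploid female larvae, in 4 libraries from late larvae (instar 4) and 4 libraries from early larvae (instars 1 and 2). Each library was made from pooled larvae of the same colony and stage. By the paper's methods each of the 4 colonies gave 2 libraries. Whether these came from both stages or from the same stage is not stated there. The labels do not say which replicates share a colony, so libraries of a stage may share one. No treatment or genetic change is given for either stage. The stage pattern of bte-mir-6001 was known when these miRNAs were chosen, so it is given as a description without a test.

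A miRNA is cut from a hairpin precursor, and 1 arm of the hairpin is loaded onto an Argonaute protein. The seed, bases 2 to 8 of the mature strand, leads the pairing with target transcripts, and miRNAs with the same seed are placed in 1 family because they can bind the same sites. In insects, several conserved miRNAs switch on or off between larval stages and around metamorphosis, with let-7 as the best known case. No target or function is assigned here to the 3 bee miRNAs.

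The mature sequences are shown as DNA letters, 5′ to 3′, with the seed in capitals, because the seed decides whether the 3 could form a family and which other listed miRNAs they resemble.
bte-mir-6001: gTAGGTAAcgactgatgggaacat
bte-mir-6037: tAAGCTCTgtgtactttttaca
bte-mir-6039: aATCGAACgcgtgagtttacgt
bte-mir-993: gAAGCTCGtctctacaggtatct
The 3 bee miRNAs do not share a seed. Between them the seeds differ at 4 of the 7 positions for bte-mir-6001 and bte-mir-6037, at 5 for bte-mir-6001 and bte-mir-6039 and at 6 for bte-mir-6037 and bte-mir-6039. No other entry of the table has the seed of any of them. The longest run of bases shared by any pair of the mature strands is 5 nt.
The closest seed to that of bte-mir-6037 is the seed of bte-mir-993, an insect miRNA, which was picked out after its sequence and values were seen. The seeds of bte-mir-6037 and bte-mir-993 are the same at 6 of the 7 positions and differ at base 8 only. For bte-mir-6001 the closest seeds are those of bte-let-7, bte-mir-275 and bte-mir-306, each the same at 5 of the 7 positions and different at bases 2 and 8. For bte-mir-6039 the closest seeds, those of MC37 and bte-mir-92b, also match at 5 of the 7 positions.

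The precursors are shown with the mature strand in capitals, because they place it on an arm of the hairpin.
bte-mir-6001: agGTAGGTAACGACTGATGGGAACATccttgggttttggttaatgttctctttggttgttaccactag
bte-mir-6037: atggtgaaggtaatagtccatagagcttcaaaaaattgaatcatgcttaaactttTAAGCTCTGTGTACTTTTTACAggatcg
bte-mir-6039: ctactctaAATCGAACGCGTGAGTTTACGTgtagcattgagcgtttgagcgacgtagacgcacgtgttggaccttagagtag
Positions are those of the table, on the authors' B. terrestris scaffolds (assembly Bter_1.0). The precursor of bte-mir-6001 (miRBase MI0020211) lies on Group13.5 from 4555798 to 4555865 on the minus strand. Its mature strand, bases 3 to 26 of 68, is on the 5p arm. It is 24 nt long, where the median of the list is 22 nt and 4 of the 65 entries reach 24 nt or more, and it starts with G, as do 5 entries in all.
The precursor of bte-mir-6037 (MI0020304) lies on Group2.4 from 578247 to 578329 on the plus strand, with the mature strand on the 3p arm at bases 56 to 77 of 83. The precursor of bte-mir-6039 (MI0020306) lies on GroupUn377 from 848 to 929 on the plus strand, with the mature strand on the 5p arm at bases 9 to 30 of 82. Both mature strands are 22 nt long. That of bte-mir-6037 starts with U (T in the table), as 42 of the 65 entries do, and that of bte-mir-6039 starts with A.
None of the 3 has another listed precursor within 10 kb. Only the 65 listed entries were searched. The precursor of bte-mir-6039 starts at base 848 of its scaffold, so neighbours beyond the scaffold end could not be seen. The nearest listed precursor on the same scaffold and in either direction is 948379 bases away for bte-mir-6001 and 212407 bases away for bte-mir-6037, and bte-mir-6039 is the only entry on its scaffold. Whether they lie in introns or exons was not analysed here.

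The hairpins differ in strength. Folded with RNAfold, the precursor of bte-mir-6037 had a minimum free energy of −20.1 kcal/mol, against −27.8 kcal/mol for bte-mir-6001 and −36.4 kcal/mol for bte-mir-6039. The median of the 65 entries was −34.0 kcal/mol. Per 100 nt, the folds of bte-mir-6001 (−40.9 kcal/mol) and bte-mir-6039 (−44.4 kcal/mol) lay near the median of −41.9 kcal/mol. The fold of bte-mir-6037 (−24.2 kcal/mol per 100 nt) ranked 65 of 65, the weakest in the list. Its mature strand also had the lowest GC content, 31.8% against a median of 45.5%. The mature strand of bte-mir-6001 was paired at 22 of its 24 bases, that of bte-mir-6037 at 18 of 22 and that of bte-mir-6039 at 19 of 22.
The authors' table records bte-mir-6001 and bte-mir-6037 among the 18 entries kept by conservation between Bombus and other species, and bte-mir-6039 among the 47 predicted with miRCat, which looks for hairpins around stacks of mapped reads. By the paper's methods, conserved entries that no program predicted also had to exceed a minimum number of reads in these libraries. If that limit applied to bte-mir-6001, it was met through late libraries, with 470 reads against 3 in early ones. Only 1 arm of each of these hairpins is listed, so reads of the other arm were not analysed here.

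All 3 were of middle to low abundance. Together they had 701 reads, 550 in late and 151 in early libraries, which was 0.0341% of the 2055487 reads on listed miRNAs. Among 63 distinct sequences, bte-mir-6001 ranked 32 with 473 reads, the median of the list. bte-mir-6037 ranked 41 with 187 reads and bte-mir-6039 ranked 61 with 41 reads. Reads on listed miRNAs, which are not the full depth of a library, ranged from 45649 to 257161 in late and from 204223 to 502540 in early libraries. Levels are given as CPM, the usual rate of reads among those on listed miRNAs, either as such or with the listed totals scaled by edgeR's TMM factors. Intervals cover counting error only.

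Bte-mir-6001 was present in every late library and nearly absent from early ones. It had 199, 64, 104 and 103 reads in late replicates 1 to 4, against 0, 1, 2 and 0 reads in early replicates 1 to 4. Late libraries therefore held 99.4% of its reads although they held fewer of the listed reads. In CPM of listed reads, the late values were 774, 452, 814 and 2256, against 0, 1.99, 9.79 and 0 CPM in early libraries. The stages did not overlap, and the lowest late value was 59.5-fold above the highest early value after TMM scaling. In a whole-body pool, fewer cells that make a miRNA and less of it per cell cannot be told apart.
Summed over libraries, the late level was 821 CPM (95% Poisson interval 749 to 899) and the early level 2.02 CPM (interval 0.417 to 5.91). The ratio was 406 with an interval of 138 to 1976, and 507 (172 to 2465) after TMM scaling. These intervals are wide because the early level rests on 3 reads. Taking 3 counts as the limit that a count of 0 allows, a one-sided bound lower than the two-sided Poisson bounds of the plot by library, the early counts of 0 leave room for 5.97 CPM in early replicate 1 and 10.9 CPM in early replicate 4. The two-sided bounds are 7.34 and 13.5 CPM.
The mean was 1095 ± 647 TMM CPM in late larvae and 2.63 ± 4.18 TMM CPM in early larvae (SD, n = 4 each). By mean CPM of listed reads, bte-mir-6001 ranked 27 of 63 in late larvae and 62 of 63 in early larvae. It shared that last place with bte-mir-2788, which had 1 late and 3 early reads. The pair differed in that bte-mir-2788 was rare in both stages.
Late larvae also differed among themselves. Late replicate 4, the library with the fewest listed reads, had the highest level of bte-mir-6001, and the spread between the late libraries was 46.3 times the counting variance (chi-square per degree of freedom). Without late replicate 4 the late mean was 786 ± 231 TMM CPM (SD, n = 3). What sets that library apart was not tested.

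**Figure D1:**
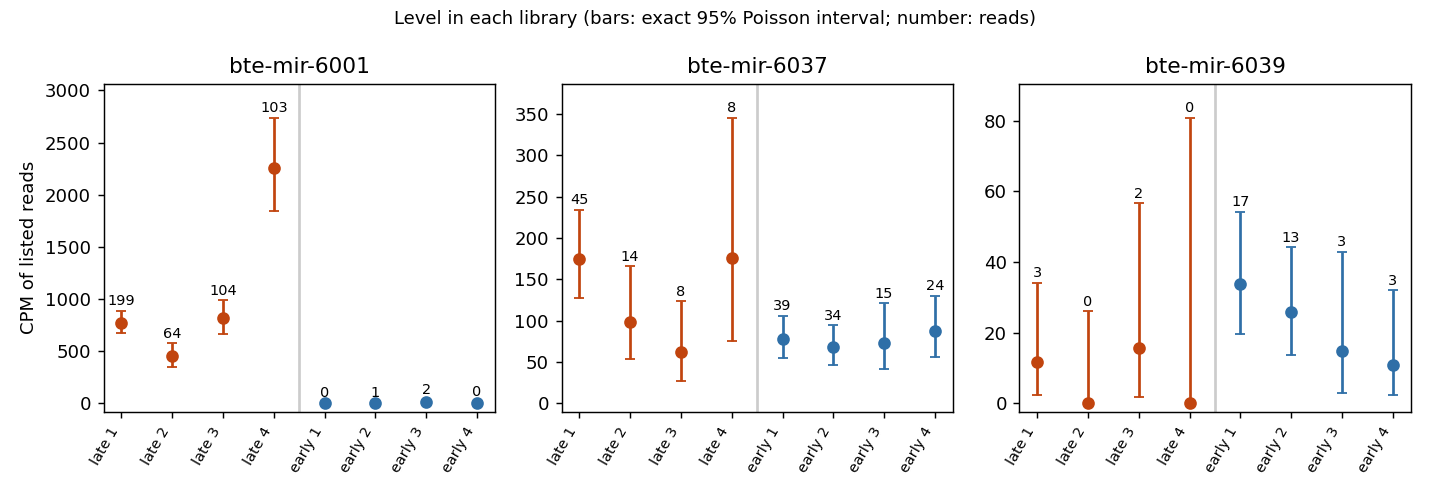
CPM of listed reads (y axis, a separate linear scale in each panel) of bte-mir-6001, bte-mir-6037 and bte-mir-6039 in each of the 4 late and 4 early libraries. Bars are exact 95% Poisson intervals and the number above each point is its read count. For bte-mir-6001 the late libraries sit between 452 and 2256 CPM and the early ones at or below 9.79 CPM, while the stages overlap for bte-mir-6037 and bte-mir-6039.

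Bte-mir-6037 was detected in all 8 libraries at a low level. It had 45, 14, 8 and 8 reads in late replicates 1 to 4, against 39, 34, 15 and 24 reads in early replicates 1 to 4. In TMM CPM the late values were 200, 114, 73.2 and 157, against early values of 66.8, 59.1, 65.8 and 94.0. The stages overlapped, since late replicate 3 lay below early replicate 4. The mean was 136 ± 54.6 TMM CPM in late larvae and 71.4 ± 15.5 TMM CPM in early larvae (SD, n = 4 each).
The early libraries differed by no more than counting error (chi-square per degree of freedom 0.325), and the late libraries by somewhat more (3.38). The log2 fold change of late over early larvae was 0.95 (standard error 0.48) and did not pass the threshold of 0.05 (edgeR's quasi-likelihood test, adjusted p = 0.139 over all 62 sequences tested). Without late replicate 1, the fold change was 0.14 on the log2 scale. In that fit the median of all sequences was −0.51, against 0.18 with all libraries. Relative to the median, bte-mir-6037 was at 0.65, against 0.77 with all libraries.
Bte-mir-993, the entry with the closest seed, was far more abundant and fell in late larvae. It had 759 late and 6245 early reads, with 1346 ± 476 TMM CPM in late larvae and 3923 ± 863 TMM CPM in early larvae (SD, n = 4 each). Its log2 fold change was −1.53 (standard error 0.32). For every 1000 reads of bte-mir-993 in the same library, bte-mir-6037 had 124, 64.8, 55.6 and 229 reads in late replicates 1 to 4, against 16.2, 19.3, 18.9 and 18.7 reads in early replicates 1 to 4. This ratio needs no scaling between libraries, and the stages did not overlap. It carries the fall of bte-mir-993 as well, and the levels of bte-mir-6037 alone overlapped between the stages. The pair was chosen after its values were seen, so no test is given. The high value of late replicate 4 rests on 8 reads of bte-mir-6037 and 35 reads of bte-mir-993.

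Bte-mir-6039 was the rarest of the 3 and the only one with a lower mean level in late larvae. It had 3, 0, 2 and 0 reads in late replicates 1 to 4, against 17, 13, 3 and 3 reads in early replicates 1 to 4. It was thus detected in 2 of the 4 late libraries and in all 4 early ones. The mean was 7.91 ± 9.35 TMM CPM in late larvae and 19.2 ± 8.20 TMM CPM in early larvae (SD, n = 4 each), and the stages overlapped.
The missing reads do not show that it was absent. At the summed early rate, 3.44 reads would be due in late replicate 2 and 1.11 reads in late replicate 4. The counts of 0 in those libraries leave room for 21.2 and 65.7 CPM of listed reads by the same limit of 3 counts (two-sided Poisson bounds 26.0 and 80.8 CPM), while the early libraries ranged from 10.9 to 33.8 CPM. The log2 fold change was −1.06 (standard error 0.75, edgeR adjusted p = 0.270), which did not pass the threshold. Summed over libraries, the ratio of late to early CPM was 0.360 with a counting interval of 0.110 to 0.920, and 0.449 (0.138 to 1.15) after TMM scaling, which includes 1. Both intervals leave out the spread between libraries.

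Because early libraries hold more reads, detection was also compared at 1 number of reads, the 45649 listed reads of the smallest library. At that size bte-mir-6001 would be expected at 20.6 to 103 reads in each late library, against 0, 0.0908, 0.447 and 0 reads in early replicates 1 to 4. Bte-mir-6037 would be expected at 2.86 to 8 reads, with a chance of at least 96.1% of being seen in each of the 8 libraries. For bte-mir-6039 the chance would be 44.4% and 58.7% in late replicates 1 and 3, against 42.1% to 80.2% in the early libraries. At this size bte-mir-6039 would often be missed in either stage.

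The same counts can be given as shares within a library, which need no scaling and add no further evidence. Bte-mir-6001 held 80.6%, 82.1%, 91.2% and 92.8% of the reads of the 3 miRNAs in late replicates 1 to 4, against 0%, 2.08%, 10% and 0% in early replicates 1 to 4. The widest exact interval in late larvae was 71.7% to 89.8% of 78 reads, and the widest in early larvae was 1.23% to 31.7% of 20 reads. Per read of bte-mir-6037, late libraries had 4.42, 4.57, 13.0 and 12.9 reads of bte-mir-6001, and early libraries had at most 0.133 reads.

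**Figure D2:**
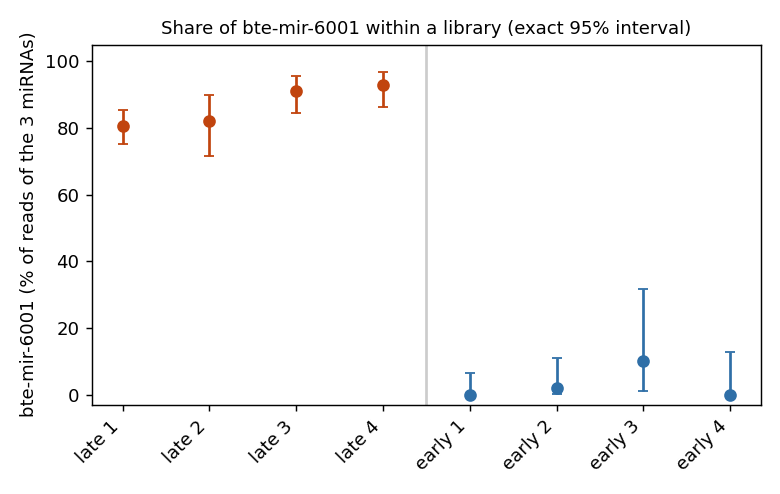
Share of bte-mir-6001 (y axis, percent) in the reads of the 3 bee miRNAs in each of the 4 late and 4 early libraries, with exact 95% Clopper-Pearson intervals. The late libraries lie between 80.6% and 92.8% and the early ones between 0% and 10%.

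Over the whole table, edgeR called a difference between the stages (adjusted p under 0.05) for 20 of 62 sequences (32.3%). Of these, 12 were higher in late larvae (19.4%) and 8 lower (12.9%). The balance turned to 9 higher and 20 lower without late replicate 1, and to 5 higher and 11 lower without early replicate 2. The median log2 fold change of all sequences was −0.51 and −0.26 in these fits, against 0.18 with all libraries. Neither bte-mir-6037 nor bte-mir-6039 was called, with unadjusted p of 0.0680 and 0.179 from edgeR's quasi-likelihood test, and neither was called by DESeq2. The stages did not overlap for 20 sequences (32.3%), which included neither of them. The counts over all 62 sequences include bte-mir-6001. It is not given as a called member because its stage pattern was known when it was chosen.

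**Figure D3:**
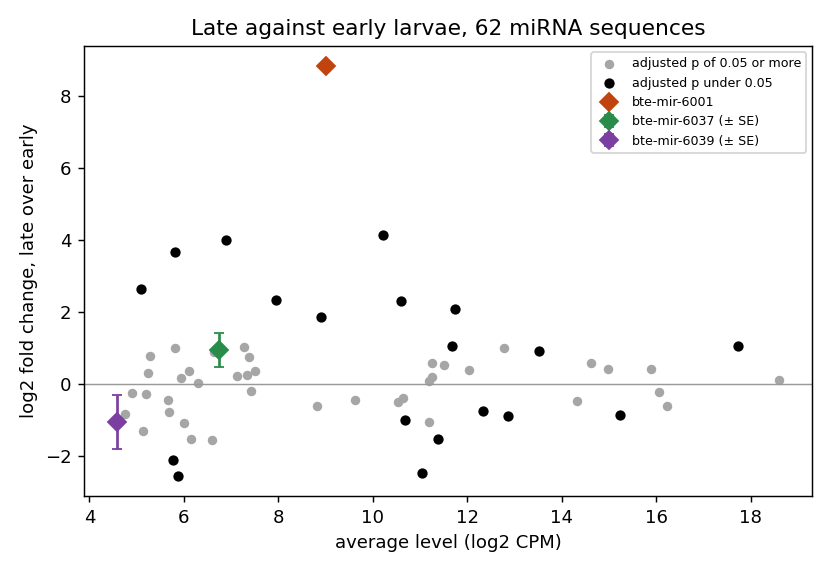
Log2 fold change of late over early larvae (y axis) against the average level in log2 CPM (x axis) for the 62 sequences tested with edgeR. Black points have an adjusted p under 0.05, grey points do not, and diamonds mark bte-mir-6037 at 0.95 and bte-mir-6039 at −1.06, with standard errors, and bte-mir-6001, which is drawn without an error as a description.

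The other miRNAs of the table with bee numbers are 6 of the 37xx range, with 41 to 5720 reads each. Of the 6, 2 were higher in late larvae by edgeR's quasi-likelihood test, and 0 were lower, against 19.4% and 12.9% of all sequences tested. The median log2 fold change of the 6 was 0.27, and that of all sequences 0.18. At an unadjusted p under 0.05, 2 were lower in late larvae (bte-mir-3730 and bte-mir-3785), and DESeq2 called 2 lower. In the 13 alternative fits bte-mir-3785 passed in 8 (adjusted p from 0.00172 to 0.157, edgeR or DESeq2) and bte-mir-3730 in 3 (0.00614 to 0.216), both lower in late larvae.
The 2 that rose were far smaller in change than bte-mir-6001 and were seen in early larvae. bte-mir-3718a had 972, 359, 229 and 0 TMM CPM in late replicates 1 to 4, against 54.8, 123, 87.7 and 58.8 TMM CPM in early replicates 1 to 4. The stages overlapped at late replicate 4, and the log2 fold change was 2.32 (standard error 0.75, edgeR adjusted p = 0.0244). It passed in 6 of 13 alternative fits (adjusted p from 0.00427 to 0.342, edgeR or DESeq2). Its log2 fold change was 0.77 without late replicate 1, a fit where the median of all sequences was −0.51.
bte-mir-3759 had 17.8, 81.6, 91.5 and 58.9 TMM CPM in late replicates 1 to 4, against 12.0, 0, 13.2 and 15.7 TMM CPM in early replicates 1 to 4. It had only 41 reads in all, and its level in late replicate 4 rests on 3 reads. Its log2 fold change was 2.64 (standard error 0.78, edgeR adjusted p = 0.0168), with 11 of 13 alternative fits passing (0.00292 to 0.0785). The exceptions were the fits without early replicate 2 (adjusted p = 0.0745) and without late replicate 2 (0.0785).

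The miRNAs most like bte-mir-6001 were sought by Pearson correlation of log2(TMM CPM + 1) over the 8 libraries. The first 3 were MC1607 (r = 0.91), an entry without a miRBase name, bte-mir-2765 (r = 0.89), a conserved insect miRNA, and bte-mir-8 (r = 0.85), which in Drosophila promotes body growth. The libraries fall into the 2 stages, so these coefficients describe mainly the step between stages. With Spearman's rho, 1 of the 3 remained among the first 3.
MC1607 had 964, 1827, 613 and 5950 TMM CPM in late replicates 1 to 4, against 130, 156, 145 and 82.3 TMM CPM in early replicates 1 to 4. As with bte-mir-6001, late replicate 4 was the highest library. Unlike bte-mir-6001, MC1607 had clear early levels.
bte-mir-2765 had 2709, 2472, 3780 and 1434 TMM CPM in late replicates 1 to 4, against 505, 481, 487 and 623 TMM CPM in early replicates 1 to 4. Here late replicate 4 was the lowest of the late libraries. Both were higher in late larvae, by log2 fold changes of 4.16 (standard error 0.63) for MC1607 and 2.31 (standard error 0.34) for bte-mir-2765. They were picked for likeness to bte-mir-6001, which favours entries with a late rise, so these changes are given as a description without a test. bte-mir-8, picked in the same way, did not pass the threshold (log2 fold change 0.42 with a standard error of 0.18, adjusted p = 0.0927 by edgeR).
For bte-mir-6037 the most alike were MC1211 (r = 0.95), bte-mir-8 (r = 0.85) and MC1607 (r = 0.72). MC1211 had 599, 122, 27.5 and 98.2 TMM CPM in late replicates 1 to 4, against 13.7, 5.21, 13.2 and 27.4 TMM CPM in early replicates 1 to 4. In TMM CPM, both it and bte-mir-6037 had their highest level in late replicate 1 and their lowest late level in late replicate 3. For bte-mir-6037, late replicates 1 and 4 were level in CPM of listed reads (175 in each). Its values in late replicates 3 and 4 rest on 8 reads each. With 41 reads, bte-mir-6039 was left out of this search.

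**Figure D4:**
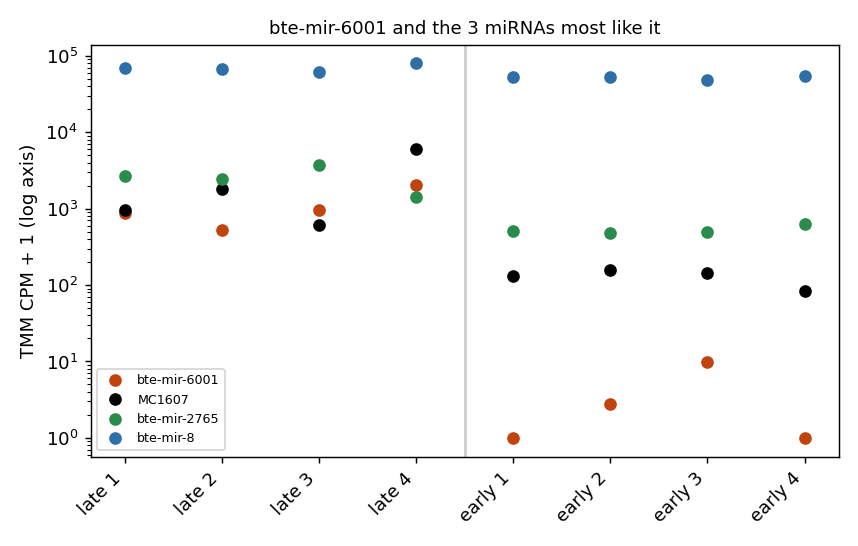
Levels of bte-mir-6001, MC1607, bte-mir-2765 and bte-mir-8 (y axis, TMM CPM + 1 on a log axis) in each of the 4 late and 4 early libraries. In late larvae bte-mir-6001 lies between 522 and 2023 TMM CPM, and in early larvae at 8.77 TMM CPM or below, where MC1607 and bte-mir-2765 keep levels between 82.3 and 623 TMM CPM.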

How the data were processed

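Small RNA of 8 libraries was sequenced with a 3′ adaptor carrying degenerate bases, which lowers ligation bias. Reads of all libraries were mapped together to the B. terrestris genome by the authors, who predicted precursors with miRCat and kept others by conservation. Conserved entries that no program predicted also had to exceed a minimum number of reads. The authors deposited raw counts per mature sequence and library, neither normalized nor pooled. Counting program, mismatches allowed and treatment of end variants are not given in the sources used here, and could change every count. Library columns were matched by stage initials and number, with 0 columns unmatched.

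Here, bte-mir-275, blank in most libraries, was left out, and the sequence shared by MC218 and MC64 was counted once. Sequences with at least 10 counts (62 of 63) were scaled by TMM and tested with edgeR 4.0.16 (quasi-likelihood, stage only, Benjamini-Hochberg) in R 4.3.3; the test was checked on simulated data. Standard errors are the log2 fold change over the square root of F. Poisson and Clopper-Pearson intervals are exact (95%), and expected reads at equal size are hypergeometric. Precursors were folded with RNAfold 2.7.2. Alternatives were DESeq2 1.42.0, scaling by listed total, no filter, the replicate number as a block, every row kept, each library left out and other measures of likeness. Members and lists were chosen with earlier results of these data known. Named were the 3 members, entries sharing their seed or lying within 10 kb, the 3 most alike of each member with at least 100 reads, and the other entries with 37xx or 60xx names; bte-mir-993 and bte-mir-2788 were added after their values were seen. Replicates are separate pools of larvae, and colonies recur among the libraries, within a stage, across stages or both.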

Additional observations from a re-analysis of the deposited data

How the results depend on the processing

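Bte-mir-6037 stayed higher and bte-mir-6039 lower in late larvae in all 13 alternative fits, and neither passed 0.05 in any of them. Their adjusted p ranged from 0.0657 to 0.843 and from 0.0755 to 0.499 (edgeR or DESeq2). Leaving out 1 library each moved the log2 fold change of bte-mir-6037 between 0.14 and 1.16, that of bte-mir-6039 between −2.06 and −0.73 and the number of calls between 15 and 29. Scaling by the listed total gave 11 higher and 14 lower calls in place of 12 and 8, and DESeq2 12 and 13. The median log2 fold change of all sequences was −0.09 with scaling by the listed total, and relative to the median of each fit that of bte-mir-6037 stayed between 0.60 and 1.04 and that of bte-mir-6039 between −1.59 and −0.74.

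Same-numbered libraries did not deviate together (r from −0.09 to 0.03 over 4 pairs), and 1 of 8 libraries correlated best with its own number. With the replicate number as a block, the log2 fold change was 0.90 for bte-mir-6037 and −1.22 for bte-mir-6039, and 18 sequences were called. At 127691 listed reads, leaving out late replicate 4, bte-mir-6039 had a chance of at least 95% of being seen in 3 of 7 libraries, in place of 0 at 45649 reads. Of those 3, late replicate 3 is at its own size, where its chance is 100% by construction.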
